A study of Mus musculus with 6 samples.

Results

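Alanine tRNAs carry alanine to the ribosome and read the alanine codons through the anticodons AGC, CGC and TGC (written as DNA), so that each anticodon defines an isoacceptor. Fragments are cut from such tRNAs in many tissues, at the anticodon loop, near the D loop or in the T arm at the CCA end, which is added after transcription and carries the amino acid. The 5′ fragments of alanine and cysteine tRNAs begin with a run of guanines and are known in stressed cells as inhibitors of translation initiation.

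The members described here are tRNA-derived small RNAs (tDRs, each with its own ID) in a table of tag counts from mouse brain. They were chosen by name: every parent tRNA listed for the ID is an alanine tRNA and at least 1 of them is a mature tRNA, not a precursor. This gave 33 of 591 IDs. The libraries came from brain of C57BL/6 mice, an inbred strain, at 3 months of age (n = 3) and at 22 months (n = 3), with no treatment or mutation named in the labels. The labels do not say whether replicates are separate animals or pools, so p-values cover only variation among these libraries, which may be technical. A further 12 IDs have an alanine parent but are no members, 11 listed under alanine precursors only and 1 shared with an undetermined tRNA.

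By anticodon, 8 members were listed under Ala-AGC only, 7 under Ala-CGC only, 7 under Ala-AGC and Ala-TGC, 8 under Ala-CGC and Ala-TGC, and 3 under all of these. No member was listed under Ala-TGC alone, so the TGC isoacceptor cannot be described apart from the others. The 33 members fall into 15 distinct sets of parents. Members of a set share their source sequence and often overlap, so they are not independent measurements of an isoacceptor.

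A few parent sequences are printed from the deposited table, 5′ to 3′, with the anticodon in capitals, to show how alike the isoacceptors are. Ala-AGC-3-1, Ala-CGC-1-1 and Ala-TGC-1-1, of 75 nt, stand for the 3 anticodons, and Ala-AGC-4-1, of 76 nt, for AGC tRNAs of a different sequence.
Ala-AGC-3-1: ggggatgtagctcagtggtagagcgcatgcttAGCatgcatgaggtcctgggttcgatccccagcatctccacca
Ala-CGC-1-1: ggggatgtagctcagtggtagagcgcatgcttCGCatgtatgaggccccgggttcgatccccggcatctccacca
Ala-TGC-1-1: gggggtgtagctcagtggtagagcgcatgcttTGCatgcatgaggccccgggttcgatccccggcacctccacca
Ala-AGC-4-1: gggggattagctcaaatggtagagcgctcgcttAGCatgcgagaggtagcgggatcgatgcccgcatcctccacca
Of the 29 mature parents of members, 28 start with GGGG, against 10 of the 307 mature parents of other tRNAs in the table, 9 of these being the 9 cysteine parents. Leaving out Ala-CGC-5-1, pairs of these parents were identical at 66.2% to 100% of aligned positions, with a median of 88.0%. The table gives no gene positions. RefSeq (GRCm38.p6) holds 33 alanine tRNA genes with these anticodons, 12 of them on chromosome 13 and 12 on chromosome X, under names that do not pair with the parent names.

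The exception is Ala-CGC-5-1, which does not start with GGGG. It is the only mature parent of all 7 members listed under Ala-CGC alone, so these IDs do not describe the other CGC tRNAs. Its sequence matched Glu-CTC-5-1, a glutamate tRNA, at 67 of 75 aligned positions (89.3%), and no other alanine parent at more than 57.1%. It is printed beside that glutamate tRNA because it goes against the label, with the differing bases in capitals.
Ala-CGC-5-1: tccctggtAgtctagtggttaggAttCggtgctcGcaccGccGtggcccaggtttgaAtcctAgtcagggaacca
Glu-CTC-5-1: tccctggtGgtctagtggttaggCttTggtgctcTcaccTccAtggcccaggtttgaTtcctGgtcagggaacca
These 7 members carried between 19.2% and 23.5% of the alanine tags in every library. They are called Ala-CGC-5-1 members below, after their parent, and the alanine total is also given without them.

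The table does not give the fragments' own sequences, but the parents listed together limit where a fragment could lie. Stretches of 15 to 50 nt were sought that are found in every mature parent of a set and in no other mature parent of the table. This reading assumes exact matches and complete lists of parents, which no source states. For 5 members, among them the most abundant alanine ID, AS-tDR-000102, the 6 mature parents share such stretches only between positions 57 and 75 of Ala-CGC-1-1, that is, in the 3′ end with the CCA. Positions are counted from the 5′ end, and capitals mark the bases that every such stretch contains.
Set of AS-tDR-000102: atCCCCGGCATCTCCacca
Set of AS-tDR-006248: cCCGGCATCTCCACCa
Set of AS-tDR-000401: ggggATGTAGCTCAGTggtagagc
Set of AS-tDR-000100, 5′ option: ggggGTGTAGCTCAGtggtagagcgc
Set of AS-tDR-000100, 3′ option: atccCCGGCACCTCCacca
AS-tDR-006248, with 18 mature parents, was likewise limited to positions 60 to 75. AS-tDR-000401, with 11, was limited to positions 1 to 24, at the 5′ end with the run of guanines. For the 7 members of Ala-AGC-2-1, Ala-AGC-2-2 and Ala-TGC-1-1, such as AS-tDR-000100, both positions 1 to 26 and positions 57 to 75 of Ala-AGC-2-1 fit by the mature parents. Precursor parents were not used in the search, so it does not tell apart AS-tDR-011054, which also lists the precursor of Ala-TGC-1-1. For AS-tDR-000395 and AS-tDR-000396 no such stretch was found, so the assumptions above were not met by their mature parents at these lengths. Whether they hold for the other members is not known, and the positions given rest on them.

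Listed tags summed to between 44156 and 57425 per library at 3 months and between 71121 and 96130 at 22 months. The smallest listed value, below which a library holds only 0, was 8 to 11 tags at 3 months and 13 to 17 at 22 months. Single-ID levels are given as CPM of listed tags after scaling by the trimmed mean of M-values (TMM CPM). On that scale the minimum averaged 176 and 203. A value of 0 was read as a level below that minimum. The alanine total was 990, 858 and 980 tags at 3 months, replicates 1 to 3, then 1185, 1002 and 1005 at 22 months. The brain origin could not be checked, as the table holds no parent named Arg-TCT-4-1, a tRNA gene known for its expression in the central nervous system. Replicate 3 at 22 months stood apart in the alanine members, where 4 IDs listed in all 5 other libraries were at 0, so the results that rest on it are given with and without it.

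**Figure D1:**
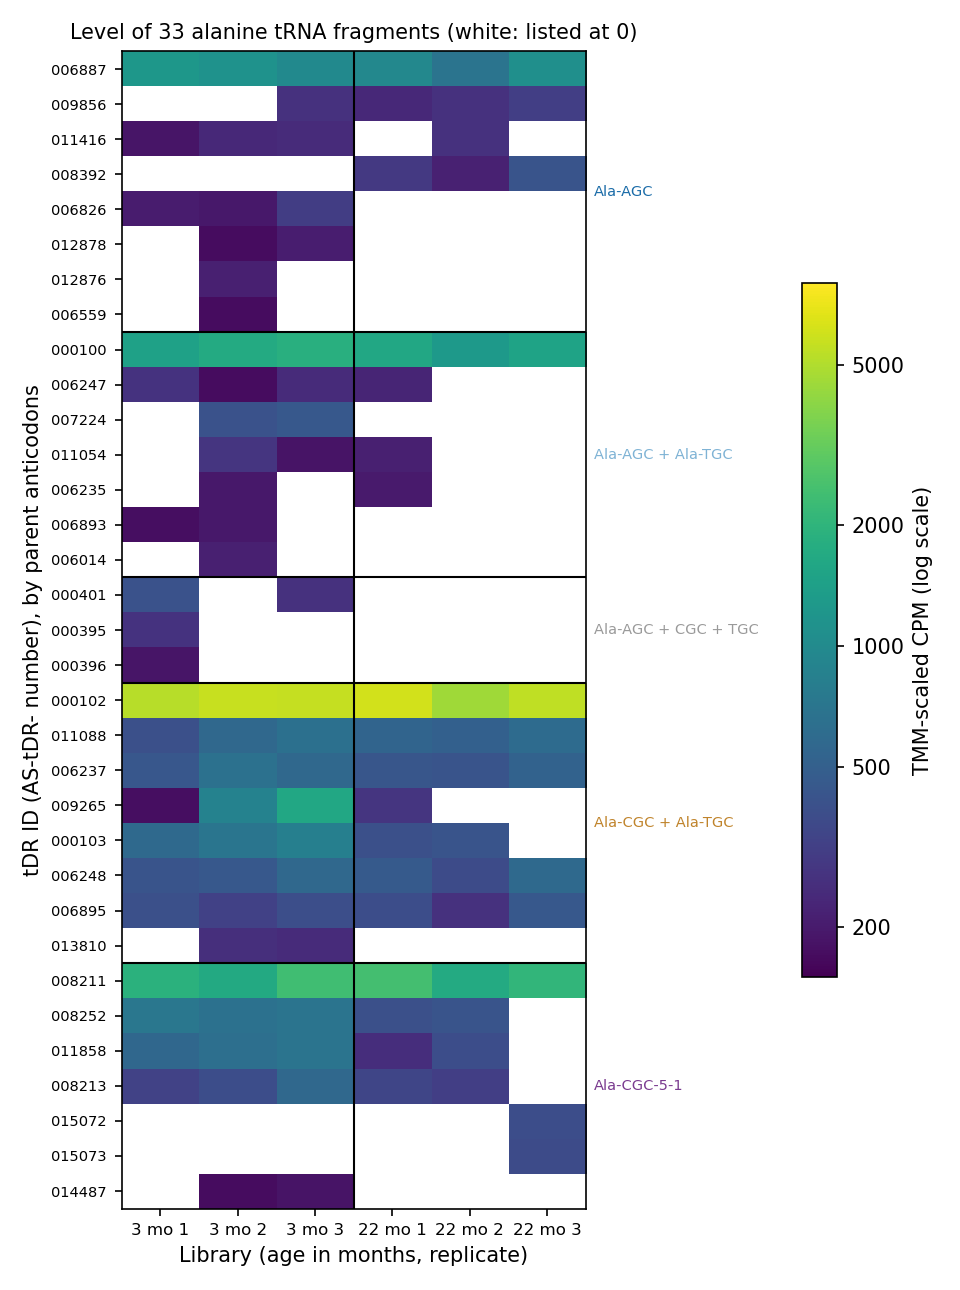
TMM-scaled CPM (colour, log scale) of the 33 alanine members (rows, grouped by parent anticodons) in the 6 libraries (columns). White cells are listed at 0. A total of 8 rows are filled across all libraries, and 12 are filled at 3 months only.

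The comparison the design implies is 22 against 3 months. Of the 19 alanine members tested, 0 rose and 0 fell (quasi-likelihood test of edgeR, threshold 0.05 after Benjamini-Hochberg adjustment over the 439 IDs tested). Of all tested IDs 6.61% passed, 4.78% higher and 1.82% lower. At an unadjusted p under 0.05 there were 2 alanine members, against 25.5% of all tested IDs. DESeq2 called 1 member higher and 1 lower, against 13.4% and 8.66% of all tested IDs (22.1% in all). The limma-voom fit also called 1 higher and 1 lower, against 5.92% and 4.56% (10.5% in all). In both tools these were AS-tDR-008392 and AS-tDR-006826, which lay at 0 in one age. The other 14 members were not tested because their counts were too low. The 19 tested members had a median log2 difference of -0.29 (22 minus 3 months), with 15 negative and 4 positive, against a median of -0.16 over all tested IDs, with 252 negative and 187 positive.

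A total of 8 members were above 0 in all 6 libraries, and their levels overlapped between the ages. They include the 6 of highest mean level and held between 64.9% and 73.8% of alanine tags at 3 months and between 81.0% and 89.2% at 22 months. Their log2 differences ran from -0.29 to 0.06, with a median of -0.04, the same as the -0.04 over the 290 IDs of this kind. Those 290 ranged from -1.92 to 2.87. Of the 8, 0 were separated between the ages, while 40.7% of the 290 were.

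AS-tDR-000102, of Ala-CGC and Ala-TGC parents and limited to the CCA end by its parent set, ranked 35th of 591 IDs by mean level. It lay at 5253, 5697 and 5654 CPM at 3 months and at 6051, 4511 and 5446 CPM at 22 months. The ages overlapped, with the highest and the lowest value both at 22 months. Its log2 difference was -0.05 (SE 0.18, 95% interval -0.50 to 0.39; edgeR, adjusted p = 0.877), and it turned to 0.057 without 22 month replicate 2. This ID alone held 28.2% to 33.7% of alanine tags at 3 months and 37.4% to 39.6% at 22 months.

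AS-tDR-008211, of Ala-CGC-5-1 and thus of the glutamate-like parent, was the next in level. It lay at 1903, 1671 and 2356 CPM at 3 months and at 2428, 1708 and 2053 CPM at 22 months. The ages overlapped, and the log2 difference was 0.06 (SE 0.22, 95% interval -0.48 to 0.60; edgeR, adjusted p = 0.880), or -0.15 when scaled by library size only.

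AS-tDR-000100, of Ala-AGC and Ala-TGC parents, followed with 1463, 1713 and 1844 CPM at 3 months and 1619, 1287 and 1505 CPM at 22 months. Only 1 value at 22 months lay below all of those at 3 months, and the log2 difference of -0.19 (SE 0.19, 95% interval -0.64 to 0.27) did not pass (edgeR, adjusted p = 0.605). Without single libraries it ran from -0.27 (3 month replicate 1) to -0.095 (3 month replicate 2). AS-tDR-006887, listed under Ala-AGC-3-1 alone, had 1227, 1135 and 983 CPM at 3 months and 955, 698 and 1095 CPM at 22 months. It is the one abundant ID of the AGC isoacceptor by itself, and 2 of its values at 22 months lay below those at 3 months. Its log2 difference was -0.29 (SE 0.24, 95% interval -0.86 to 0.29; edgeR, adjusted p = 0.504), and -0.12 without 22 month replicate 2.

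The other 4 members above 0 throughout were of Ala-CGC and Ala-TGC parents, all limited to the 3′ end by their parent sets. Their mean levels at 3 months were 559 ± 112 CPM for AS-tDR-006237, 542 ± 135 for AS-tDR-011088, 483 ± 79.7 for AS-tDR-006248 and 368 ± 40.4 for AS-tDR-006895 (SD, n = 3 each). At 22 months they were 460 ± 52.9, 550 ± 48.7, 475 ± 108 and 367 ± 94.7 CPM in the same order. These differences were all smaller than the larger of the SDs, and none passed (edgeR, adjusted p between 0.612 and 0.990). On the log2 scale the 95% interval was -0.98 to 0.42 for AS-tDR-006237 and -0.96 to 0.95 for AS-tDR-006895, the widest of the 4.

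**Figure D2:**
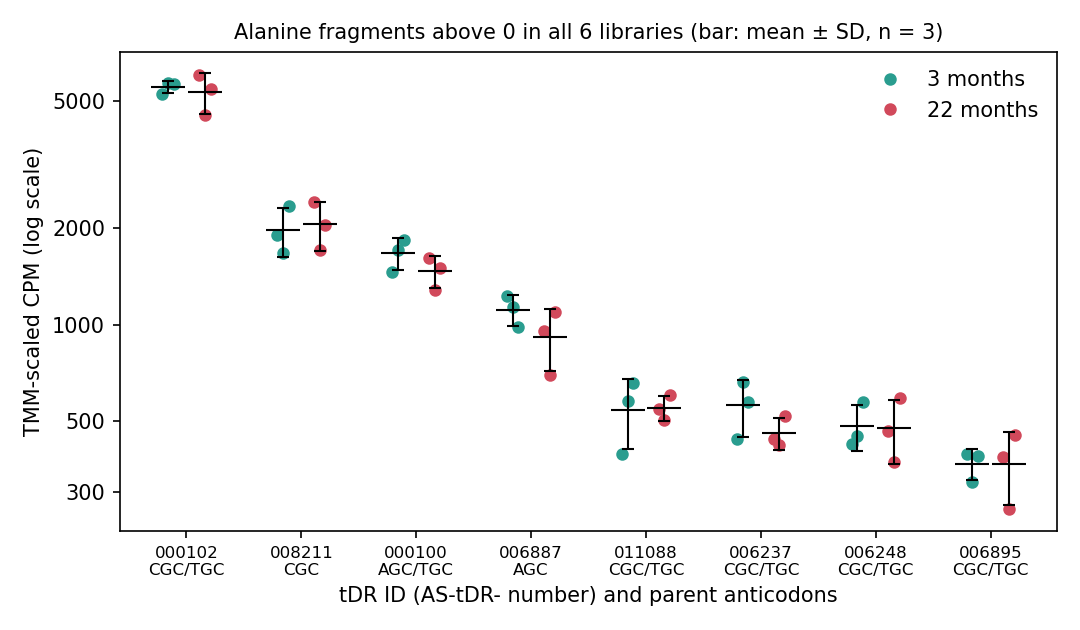
TMM-scaled CPM (log axis) of the 8 alanine members above 0 in all 6 libraries, 1 point per library, with the mean and SD of each age (n = 3). The ages overlap for every ID, from AS-tDR-000102 with a mean of 5535 CPM at 3 months to AS-tDR-006895 with 368 CPM.

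The remaining members were each at 0 in at least 1 library, some of them at mean levels above those of AS-tDR-006248 and AS-tDR-006895. Of all 33 members, 20 were listed in more libraries at 3 months than at 22 months (60.6%), and 4 in more at 22 months, against 174 (29.4%) and 95 of all 591 IDs. At 3 months only, 12 members were listed (36.4%), against 14.7% of all IDs. At 22 months only, 3 members were listed (9.09%), against 10.3% of all IDs. The number of alanine members listed was 20, 26 and 23 in the libraries at 3 months and 18, 15 and 12 at 22 months. Numbers over all IDs were 439, 463 and 447, and 459, 413 and 373, so 22 month replicates 2 and 3 listed fewer IDs of any kind. The listing minimum was on average somewhat higher at 22 months on the TMM scale, as given above. In CPM of listed tags without TMM it was 192, 177 and 204 at 3 months and 183, 177 and 200 at 22 months. The part of the minimum in these counts was not tested.

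AS-tDR-008392, of Ala-AGC-4-1, Ala-AGC-4-2 and Ala-AGC-6-1, was the one member listed in all libraries at 22 months and in none at 3 months. It had 22, 18 and 31 tags, or 292, 217 and 424 CPM, at 22 months. Their mean of 311 ± 105 CPM (SD, n = 3) was at least 1.76-fold higher than the level at 3 months, taken as the mean listing minimum of that age. It missed the threshold in edgeR (adjusted p = 0.058) and passed DESeq2 (adjusted p = 0.000166) and limma-voom (adjusted p = 0.0466). AS-tDR-009856, of Ala-AGC-6-1 and Ala-AGC-7-1, had 18, 22 and 23 tags at 22 months and 0, 0 and 13 at 3 months (log2 difference 1.61, SE 1.71; edgeR, adjusted p = 0.621). Leaving out single libraries gave fitted values between 1.03 and 7.23, the highest without 3 month replicate 3, when no library of that age lists the ID.

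Both these IDs are listed under AGC parents numbered 4, 6 or 7, of which Ala-AGC-4-1 is printed above. AS-tDR-006559, listed under Ala-AGC-12-1, Ala-AGC-4-1 and Ala-AGC-4-2, had 8 tags in 1 library at 3 months and was at 0 elsewhere. Summed, the 3 IDs had 0, 8 and 13 tags at 3 months and 40, 40 and 54 at 22 months. The 5 IDs listed under Ala-AGC-2 or Ala-AGC-3 had 103, 91 and 85 tags at 3 months and 72, 80 and 80 at 22 months. Neither sum overlapped between the ages, in tags not scaled for library size and with 0 counted as no tags. Of all tested single IDs, 39.4% did not overlap on the scaled level. Tags below the listing minimum, 13 to 17 at 22 months, are left out of the sums. Such tags could close the gap in the sum of Ala-AGC-2 or Ala-AGC-3. The other sum also leaves out tags below the minimum of 8 to 11 at 3 months. Libraries at 22 months had larger totals of listed tags. Whether the ages stay apart in that sum per listed tag is therefore not known. This split of the AGC members was made after their values were seen and was not tested.

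AS-tDR-006826, of Ala-AGC-2-1 and Ala-AGC-2-2, had 13, 9 and 15 tags at 3 months and 0 in every library at 22 months. It had 193 CPM in 3 month replicate 2, below the listing minima of 204 and 233 CPM in 22 month replicates 2 and 3. Whether it was lower in every library at 22 months is therefore not known. Its mean at 3 months was 235 ± 63.0 CPM (SD, n = 3), and the level at 22 months, taken as the mean listing minimum of that age, was at least 1.16-fold lower. It missed the threshold in edgeR (adjusted p = 0.0697) and passed DESeq2 (adjusted p = 0.000135) and limma-voom (adjusted p = 0.0456). AS-tDR-011416, of Ala-AGC-3-1, had 12, 11 and 12 tags at 3 months and 22 tags in replicate 2 only at 22 months (log2 difference -1.31, SE 1.82; edgeR, adjusted p = 0.692). The fitted value was -6.79 without that library, when no library at 22 months lists the ID, and -0.63 without either of the other libraries of that age.

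Of the 11 others listed at 3 months only, none was listed in all 3 libraries of that age. They comprised all 3 IDs of AGC, CGC and TGC parents. Of these, AS-tDR-000401, limited to the 5′ end by its parent set, reached 26 and 13 tags in replicates 1 and 3. AS-tDR-000395 and AS-tDR-000396, whose only CGC parent is a precursor, had 17 and 12 tags in replicate 1 alone. AS-tDR-007224, of Ala-AGC and Ala-TGC, had 19 and 22 tags in replicates 2 and 3, and AS-tDR-013810, of Ala-CGC and Ala-TGC, 12 tags in each of those. The remaining 6, AS-tDR-006014, AS-tDR-006559, AS-tDR-006893, AS-tDR-012876, AS-tDR-012878 and AS-tDR-014487, had at most 11 tags in any library. No fold is given for any of these, because a mean over libraries at 0 is no level.

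Among the Ala-CGC-5-1 members, AS-tDR-008211 stayed listed throughout and the rest did not. AS-tDR-008252 had 723, 664 and 696 CPM at 3 months and 398, 421 and 0 CPM at 22 months. AS-tDR-011858 had 566, 643 and 696 CPM, then 252, 385 and 0 CPM. Both were lower in every library at 22 months, and neither passed (edgeR, adjusted p = 0.505 and 0.453). Their log2 differences were -1.34 and -1.57 over all libraries and -0.69 and -0.91 without 22 month replicate 3, where both are at 0 (edgeR, adjusted p = 0.0786 and 0.112).

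AS-tDR-008213 had 21, 18 and 28 tags at 3 months and 26, 26 and 0 at 22 months (log2 difference -0.96, or -0.31 without replicate 3; edgeR, adjusted p = 0.678 and 0.655). In that same library AS-tDR-015072 and AS-tDR-015073 had 28 and 27 tags, while both were at 0 in the other 5. So within 1 parent, 3 IDs dropped out and 2 appeared in 1 library, while the summed Ala-CGC-5-1 tags there, 205, lay near the 258 and 235 of the other libraries of that age. AS-tDR-014487 had 8 and 9 tags in 3 month replicates 2 and 3.

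AS-tDR-000103, of Ala-CGC and Ala-TGC, followed the pattern of AS-tDR-008252, with 582, 707 and 840 CPM at 3 months and 398, 421 and 0 CPM at 22 months. Its log2 difference was -1.37, or -0.71 without 22 month replicate 3 (edgeR, adjusted p = 0.502 and 0.107). AS-tDR-009265, of the same parents as AS-tDR-000102, varied widely at 3 months, with 11, 41 and 80 tags at 3 months and 21, 0 and 0 at 22 months. The fitted log2 value was -3.25 (SE 1.64), not past the threshold (edgeR, adjusted p = 0.272). It was -2.47 without 3 month replicate 3, and -8.75 (edgeR, adjusted p = 0.0857) without 22 month replicate 1, when no library at 22 months lists the ID. It shares its 6 mature parents, and with them the 3′ stretch, with 4 IDs that were listed in every library (AS-tDR-011088 has a precursor among its parents as well).

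AS-tDR-006247, AS-tDR-011054 and AS-tDR-006235, of Ala-AGC and Ala-TGC, had at most 17 tags in any library and were at 0 in 22 month replicates 2 and 3. Over the tested members 1 was separated higher and 4 lower at 22 months, 5 of 19. Of all tested IDs, 39.4% were separated in one direction or the other. Both counts take 0 as the lowest value. The 4 include AS-tDR-006826, whose levels below the minimum may overlap those at 3 months.

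**Figure D3:**
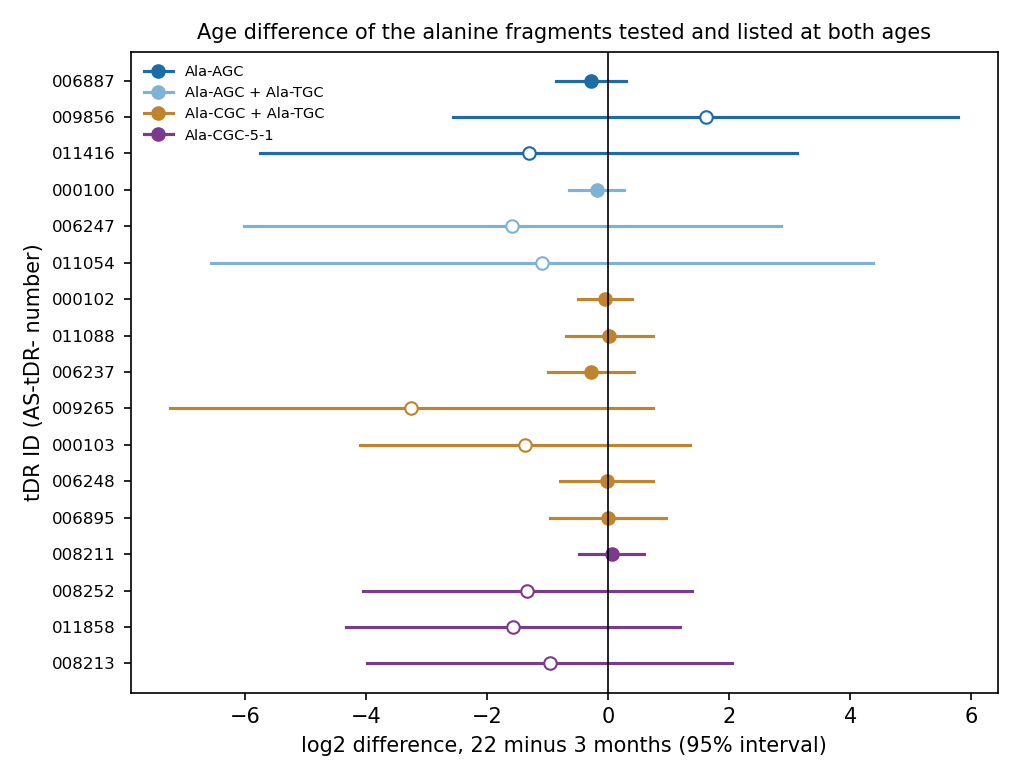
The log2 difference (22 minus 3 months, edgeR) of the 17 alanine members that were tested and listed at both ages, with 95% intervals. Filled points are above 0 in all 6 libraries, and their intervals are narrow, while open points have at least 1 library at 0 and intervals that span several log2 units. All intervals include 0.

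Tags were summed over members with the same combination of anticodons, with all listed tags as the total. Each ID enters a single sum, but IDs of the same tRNA can enter different sums. These sums have their own TMM scaling, and their CPM are not set against those of single IDs. Of the 5 alanine sums 4 were tested, and none passed in edgeR, DESeq2 or limma-voom (edgeR, adjusted over 78 sums, of which 15.4% passed). At an unadjusted p under 0.05 the number was also 0 in edgeR. The Ala-AGC sum was at 1604, 1992 and 1874 CPM at 3 months and 1494, 1435 and 2114 CPM at 22 months, differing by -0.12 on the log2 scale (SE 0.23, 95% interval -0.68 to 0.44; edgeR, adjusted p = 0.692).

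The sum of IDs shared by Ala-CGC and Ala-TGC was the largest, with 7583, 8972 and 9867 CPM at 3 months and 8602, 6458 and 8770 CPM at 22 months. Its log2 difference was -0.15 (SE 0.19, 95% interval -0.60 to 0.30; edgeR, adjusted p = 0.570), and it held 49.2% to 55.3% of alanine tags in every library. The Ala-CGC-5-1 sum averaged 3671 ± 471 CPM at 3 months and 3162 ± 321 CPM at 22 months (SD, n = 3), which differ by -0.22 on the log2 scale (SE 0.17; edgeR, adjusted p = 0.429). The sum shared by Ala-AGC and Ala-TGC differed most, from 1884, 2977 and 2543 CPM to 2267, 1280 and 1735 CPM. The ages still overlapped, and the value of -0.49 on the log2 scale (SE 0.29, 95% interval -1.17 to 0.20) missed the threshold (edgeR, adjusted p = 0.287). IDs shared by all 3 anticodons had 55, 0 and 13 tags at 3 months and 0 in all libraries at 22 months, and were not tested.

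The balance between isoacceptors within a library was compared as the ratio of Ala-AGC to Ala-CGC tags, the 1 pair for which IDs naming a single anticodon exist. Its log2 value was -1.12, -0.74 and -1.17 at 3 months and -1.20, -0.97 and -0.61 at 22 months. The ages overlapped, with a difference of 0.08 (exact two-sided permutation test, p = 0.7). Over IDs above 0 in all 6 libraries the difference had the opposite sign, -0.36 (exact permutation p = 0.2), and it was also below 0 without 3 month replicate 3 or without 22 month replicate 3. Since all these CGC tags are of Ala-CGC-5-1, this is a ratio of AGC fragments to those of the glutamate-like parent.

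As a share of all listed tags, alanine members took 1.72%, 1.90% and 2.22% at 3 months and 1.67%, 1.04% and 1.19% at 22 months. All 3 shares at 22 months lay below those at 3 months, though 22 month replicate 1 was close to 3 month replicate 1. The means were 1.95% ± 0.251 and 1.30% ± 0.327 (SD, n = 3 each). The two-sided exact permutation p was 0.1, the smallest that 3 libraries against 3 allow, and 0.15 adjusted over the 3 such comparisons made. These include the precursor ratio given below, which was chosen after the values were seen, so 0.15 is not an adjustment over planned comparisons alone. Without the Ala-CGC-5-1 members the shares were 1.53% ± 0.194 and 1.01% ± 0.260.

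The difference in share depended on the scaling. On the TMM scale the alanine total was 15571, 18376 and 20075 CPM at 3 months and 15725, 12053 and 13752 CPM at 22 months, and the ages overlapped (exact permutation p = 0.2). The 8 members above 0 in all libraries took 1.33% ± 0.0990 and 1.09% ± 0.262 of listed tags (SD, n = 3 each), which also overlapped (exact permutation p = 0.3).

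**Figure D4:**
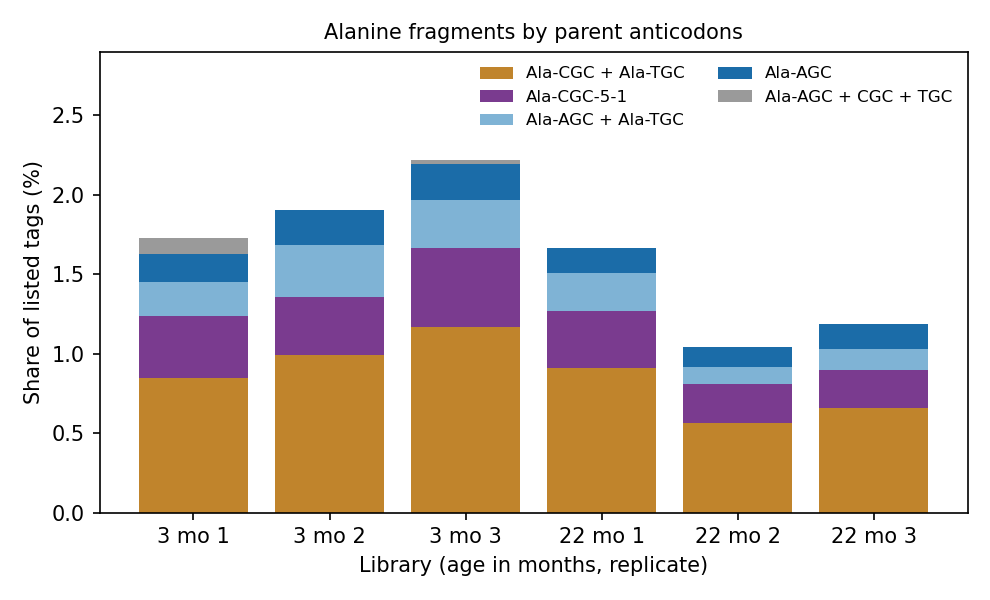
Share of listed tags (%) taken by alanine members in each of the 6 libraries, stacked by parent anticodons. The total is 1.72% to 2.22% at 3 months and 1.04% to 1.67% at 22 months, and fragments of Ala-CGC and Ala-TGC parents form the largest part of every bar.

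The 11 IDs listed under alanine precursors only, which are no members, differed among themselves. Members can also list precursors beside a mature parent, as the Ala-CGC-5-1 members, AS-tDR-008392 and AS-tDR-009856 do. Member tags are therefore not tags of mature tRNAs alone. The 5 listed under the precursor of Ala-CGC-2-1 summed to 729, 563 and 470 tags at 3 months and 1588, 1504 and 1212 at 22 months, or 1.19% ± 0.113 and 1.74% ± 0.430 of listed tags (SD, n = 3 each). Of these 5, 1 passed (AS-tDR-011563, log2 difference 0.79; edgeR, adjusted p = 0.0491), where 4.78% of all tested IDs passed as higher. The other 6, under Ala-AGC and Ala-TGC precursors, summed to 65, 60 and 32 tags at 3 months and 27, 0 and 0 at 22 months, and 5 of them were listed at 3 months only. The log2 ratio of member tags to those of the Ala-CGC-2-1 precursor within a library was 0.44, 0.61 and 1.06 at 3 months and -0.42, -0.59 and -0.27 at 22 months. The members thus exceeded the precursor IDs in every library at 3 months and in none at 22 months. The difference was -1.13, with no overlap, and the exact two-sided permutation p was 0.1, the smallest that 3 against 3 allows (0.15 adjusted over the 3 comparisons). This ratio, which needs no scaling between libraries, was chosen after the values were seen. Restricted to the 8 members above 0 in all libraries the difference was -0.83, and without the Ala-CGC-5-1 members -1.14. Set against all 11 precursor IDs it was -1.02.

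**Figure D5:**
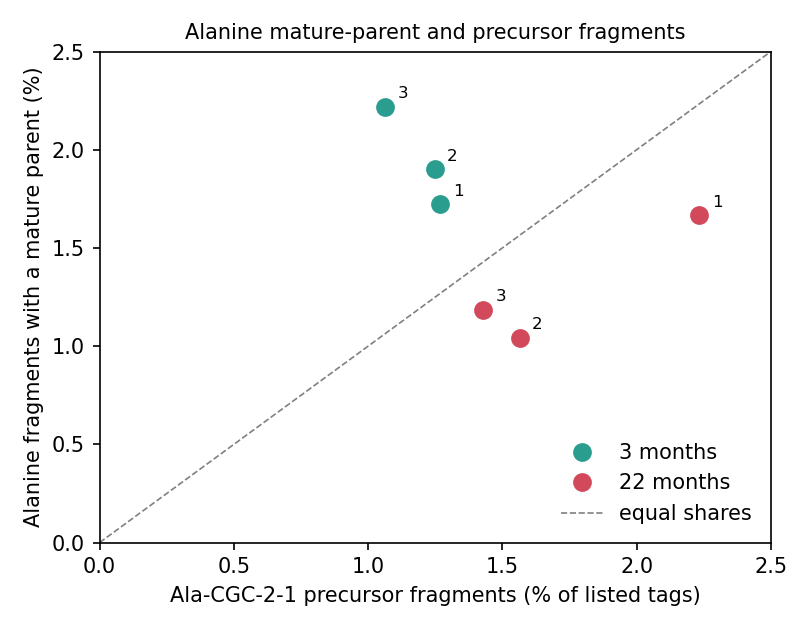
Share of listed tags (%) of the alanine members (vertical) against that of the 5 Ala-CGC-2-1 precursor IDs (horizontal), 1 point per library, numbered by replicate. The 3 libraries at 3 months lie above the dashed line of equal shares and the 3 at 22 months below it.

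Cysteine tRNA fragments, the other family whose parents start with GGGG, gave 16 IDs, of which 12 were tested. Of these, 0 were separated between the ages, against 39.4% of all tested IDs. Their median log2 difference was 0.20, with 7 positive and 5 negative, against -0.29 for alanine and -0.16 for all tested IDs. The difference between the lists was not tested.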

How the data were processed

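Small RNA of total brain RNA was extracted with Trizol and read as 50 nt single reads on an Illumina NextSeq, per the labels' protocols. FastQC, cutadapt, Novoalign and the build mm10 are named in the submitters' processing notes, with no settings. How tags were counted, where the IDs come from and which values were listed is not given in the sources used here. What the authors deposited are tag counts for each ID, per the file headers. The file's title calls them normalized, but they are whole numbers with unequal totals and were used as raw counts.

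The table repeats an ID's counts on each of its parent lines (3257 lines, 503 parent names), so each ID was taken once. Columns named Age and WT, 1 to 3, were read as 22 and 3 months, replicates 1 to 3, although the sample titles are worded otherwise. Replicates were distinct libraries (chi-square over degrees of freedom 6.60 to 59.7 between pairs). The 22 month pairs with replicate 3 gave 54.8 and 59.7, and all other pairs at most 16.9. Replicate 3 at 22 months thus stood apart over all IDs too. Same-numbered libraries did not deviate together (Pearson r -0.55, 0.13 and -0.37 over 290 IDs), so no replicate term entered the test. Some differently numbered libraries did. The r was 0.52 for 3 month replicate 3 with 22 month replicate 1, and 0.45 for 3 month replicate 1 with 22 month replicate 3. The other such pairs lay between -0.07 and -0.03. Deviations were taken from the mean of the 3 libraries of an age. The r values are therefore bound to each other and cannot be read pair by pair. The cause was not tested.

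Counts were tested with edgeR 4.0.16 (filterByExpr, minimum count 10, TMM scaling, quasi-likelihood test) under R 4.3.3. DESeq2 1.42.0 and limma-voom (limma 3.58.1) were alternatives. Standard errors come from the ratio of each log2 difference to the root of its F value, and 95% intervals from these. Permutation tests used scipy 1.17.1 and alignments Biopython 1.88. The edgeR script was tested on simulated data. Bounds for IDs at 0 in one age use the mean TMM-scaled listing minimum of that age. The total number of reads per library is not used here, so shares and CPM are of listed tags only. The spread between libraries includes counting error.

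Members, lists and tests were chosen with earlier results of these data known. Named were, per anticodon combination, the 3 most abundant IDs, IDs past the threshold, the 5 largest rises and falls among IDs above 0 in all 6 libraries, and IDs at 0 in one age. AS-tDR-000103, AS-tDR-006235, AS-tDR-006895, AS-tDR-008213, AS-tDR-009265 and AS-tDR-011054 are outside that rule and were named to account for every member.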

Additional observations from a re-analysis of the deposited data

How the results depend on the processing

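The count of 0 alanine members past the threshold in either direction held under RLE scaling, library size only and scaling to the smallest listed count, with no filter, with a replicate block, over IDs above 0 in all 6 libraries, and with each library left out (edgeR, 0 to 0 members). DESeq2 and limma-voom each called 1 higher and 1 lower. Relative to TMM, scaling by library size only shifted the median of all IDs by -0.21 on the log2 scale and scaling to the smallest listed count by -0.16. Under these, AS-tDR-008211 turned to -0.15 and -0.10 and AS-tDR-011088 to -0.20 and -0.16, and by library size only the anticodon sums were -0.49 for Ala-AGC, -0.81 for Ala-AGC with Ala-TGC, -0.56 for Ala-CGC-5-1 and -0.50 for Ala-CGC with Ala-TGC.

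With one library left out, the anticodon sums ranged from -0.26 to 0.046 for Ala-AGC (0.023 without 3 month replicate 2 and 0.046 without 22 month replicate 2), -0.71 to -0.25 for Ala-AGC with Ala-TGC, -0.28 to -0.09 for Ala-CGC-5-1 and -0.21 to 0.033 for Ala-CGC with Ala-TGC, turning positive without 22 month replicate 2. None passed in any of these settings. The difference in alanine share ranged from -0.83 to -0.51 percentage points, and the log2 ratio to the precursor IDs from -1.26 to -0.95. The Ala-AGC to Ala-CGC ratio ranged from -0.079 to 0.22, with -5.32e-05 without 3 month replicate 3 and -0.079 without 22 month replicate 3, and was -0.36 over IDs above 0 in all 6 libraries.

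AS-tDR-000102 ranged from -0.085 to 0.057 with one library left out, with 0.039 without 3 month replicate 2 and 0.057 without 22 month replicate 2, and was 0.021 over IDs above 0 in all libraries. AS-tDR-000100 ranged from -0.27 to -0.095, AS-tDR-006887 from -0.38 to -0.12 and AS-tDR-006237 from -0.42 to -0.062. AS-tDR-011088 ranged from -0.16 (without 3 month replicate 1) to 0.18. AS-tDR-006248, at -0.02, became 0.0049 with RLE scaling, 0.0015 with DESeq2, 0.0014 with limma-voom, 0.060 over IDs above 0 in all libraries, and ranged from -0.14 to 0.13 with one library left out, with 0.0078, 0.12, 0.10 and 0.13 without 3 month replicates 2 and 3 and 22 month replicates 1 and 2. The causes were not tested. With a replicate block the sums were -0.13, -0.50, -0.21 and -0.15 in the order above, and the block changed no call. The exact sign-flip permutation test over same-numbered pairs gave p = 0.25 for the share and the precursor ratio, the smallest that 3 pairs allow. Sums per anticodon of IDs naming a single one gave -0.17 for Ala-AGC and -0.27 for Ala-CGC-5-1.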
